A study of Homo sapiens with 18 samples.

Results

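The response to calcitonin gene-related peptide (CGRP) that Cal27 cells showed in each of 3 culture media was taken from all 18 libraries of the study, 9 with CGRP and 9 with control medium. Cal27 is an established line of squamous cell carcinoma of the human tongue. The groups, of 3 libraries each, were high-glucose DMEM with and without 10 nM recombinant human CGRP, glucose-deprived medium with and without it, and high-glucose DMEM holding 5 mM 2-DG with and without it, all harvested after 24 hours. 2-DG (2-deoxyglucose) is a glucose analogue that is phosphorylated by hexokinase and blocks glycolysis. The CGRP effect was the mean of the 3 within-medium differences, each medium weighing the same, and a gene was counted as shared when this mean passed edgeR's quasi-likelihood test (Benjamini-Hochberg adjusted p under 0.05 over all genes tested) and its difference had 1 sign in all 3 media. Of 18159 genes tested, 3447 were shared in this sense, 1584 higher and 1863 lower with CGRP.

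CGRP is a peptide of sensory nerve endings, which are dense in the tongue and in oral tumours. It binds a receptor made of the calcitonin receptor-like receptor (CALCRL) and the accessory protein RAMP1, which couples to the Gs protein, adenylyl cyclase and cyclic AMP. Cyclic AMP activates protein kinase A and the exchange factors of the small GTPase Rap1, and through them it can raise or lower signalling of the EGF receptor, RAS and ERK, depending on the cell.

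All libraries came from 1 line and 1 time point, and the labels call the replicates independent biological repeats. Directions below rest on the series' design text, which assigns the title codes TG to CGRP and capTG to control media; the growth protocol mentions CM without further detail. Totals ran from 28.04M to 32.66M counts. Libraries 2 of the glucose-deprived CGRP group and of the 2-DG control group stood apart on the second principal component. They scored 59.3 and 34.6 there, against -14.8 to 7.33 for the other 16. Values without both are given for the main counts and for some genes and lists. Where none are given, a result may still rest on these libraries. All 8 squamous markers were present, with summed levels of 3699 to 5204 CPM (counts scaled to library size) in control and 3470 to 5010 CPM in CGRP libraries. A bulk library cannot tell fewer cells of a type from less RNA per cell.

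The receptor genes were expressed at low to moderate levels. CALCRL ran from 2.14 to 6.63 CPM over the 18 libraries, with a mean effect of 0.32 ± 0.11 on the log2 scale that did not pass (adjusted p = 0.0521; 0.00753 without both libraries that stood apart). The CALCRL effect passed in 13 of 30 alternative settings, among them other scalings, other filters and DESeq2, so its call depended on the processing. RAMP1 lay between 6.51 and 29.3 CPM and its effect was 0.11 ± 0.10 (adjusted p = 0.504). RAMP2 and RAMP3, whose products turn CALCRL into adrenomedullin receptors, and CALCA, which encodes CGRP itself, had 0 counts in every library. CALCR, the calcitonin receptor, had 76 counts in all 18 together. Of the 6 tested genes of receptors and ligands, only ADM2, a ligand of the same receptor family, passed, and its fall (-0.72 ± 0.043, adjusted p = 1.06e-08) differed in size between the media (-0.93, -0.08 and -1.15 in high-glucose, glucose-deprived and 2-DG medium, adjusted p of the difference = 1.87e-05). Without both libraries that stood apart 4 of the list passed: CALCRL and the adrenomedullin gene ADM (0.12, adjusted p = 0.0175) were higher, and ADM2 and CRCP (-0.07, adjusted p = 0.0301), which encodes a receptor component, were lower.

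CGRP separated the libraries of every medium on the third principal component, which carried 5.31% of the variance. In high glucose the control libraries scored 1.4, -3.59 and 0.108 and the CGRP libraries 16.9, 15.1 and 15.5. Glucose-deprived control libraries scored -14.2, -12.1 and -10.8, against 19.6, 11 and 19.8 with CGRP. With 2-DG the scores were -20.4, -34.3 and -22.6 without and 5.96, 5.64 and 6.88 with CGRP. Control and CGRP libraries of the same medium did not overlap, although high-glucose controls lay near the 2-DG CGRP libraries.

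**Figure D1:**
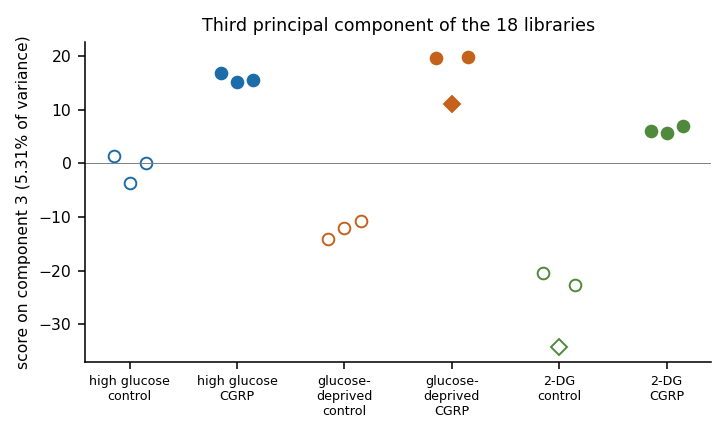
Scores of the 18 libraries on the third principal component of log2 CPM, by medium (colour) and treatment (open for control, filled for CGRP); diamonds are the libraries that stood apart on component 2. Every CGRP library lies above every control library of its own medium.

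The mean effect passed for 3883 of the 18159 genes (21.4%), 1802 higher (9.92%) and 2081 lower (11.5%). Of those that passed, 88.8% had 1 sign in all media, where 43.3% of all genes tested, including those that passed, had 1 sign. A call on the mean of the 3 changes itself favours genes with 1 sign, so these shares do not measure sharing. The split between higher and lower depended on scaling: 46.4% of the genes that passed were higher with TMM scaling and 60.4% with scaling by total counts, which called 2307 higher and 1511 lower and moved the median over all genes from -0.0044 to 0.022 on the log2 scale. Without both libraries that stood apart, 7209 of 18476 genes (39%) passed, and 3401 of the 3447 shared genes passed there in the same direction. Most shared changes were small, with a median log2 change of 0.34 for the genes that were higher and -0.22 for those that were lower. At least a 1.5-fold change was reached by 326 shared genes that rose and 148 that fell, and a 2-fold change by 64 and 33.

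Stricter readings of sharing left fewer genes. In 1124 genes that passed, 457 higher and 667 lower, the 3 CGRP libraries lay wholly to 1 side of the 3 controls in every medium, as they did for 1130 (6.22%) of all genes tested. Passing in each medium separately with 1 sign held for 319 genes (1.76% of all tested), 126 higher and 193 lower. Leaving out only the second glucose-deprived CGRP library raised this to 549, and leaving out the second high-glucose control or any 1 of the high-glucose CGRP libraries lowered it to between 181 and 208. Within single media 787 genes (4.33%) passed in high glucose, 2354 (13%) in glucose-deprived and 2216 (12.2%) in 2-DG medium. Without the second glucose-deprived CGRP library these were 1565, 2726 and 3853, and without both libraries that stood apart 3520, 5307 and 5249. Fits of only the 6 libraries of a medium gave 3653, 141 and 1194, so the order of the media depended on the fit. Leaving out any 1 high-glucose library gave 353 to 487 genes there, any 1 glucose-deprived control 1282 to 1382, and 2-DG CGRP library 2 or 3 gave 1466 and 1447. A further 1038 genes passed on average but in none of the media alone. The change of a shared gene was largest in glucose-deprived medium for 1665 genes, in 2-DG medium for 1318 and in high glucose for 464.

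Shared genes that fell were more highly expressed, with a median of 5.23 log2 CPM against 3.06 for those that rose and 3.73 over all genes tested. Protein-coding genes made up 91% of the falls and 78.8% of the rises, and lincRNA or antisense genes 4.62% and 14.6%. Over all genes tested these shares were 74.7% and 14.4%. The longest annotated transcript had a median of 3807 bases among the falls, 3044.5 among the rises and 3004 overall. These sets are those called with TMM scaling, and the split between falls and rises depended on scaling.

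Because the media have separate libraries, genes called in 2 media could be looked up in the remaining medium, with each medium fitted on its own 6 libraries. Genes called in glucose-deprived and 2-DG medium were called the same way in high glucose in 32 of 40 cases for rises (80%, against 10.8% of all genes tested) and in 29 of 31 for falls (93.5%, against 11.7%). In 2-DG medium, 32 of 50 rises called in the other media were called (64%, against 3.22%) and 29 of 37 falls (78.4%, against 3.98%). In glucose-deprived medium only 32 of 332 rises (9.64%, against 0.575%) and 29 of 409 falls (7.09%, against 0.304%) were called. The same sign was seen in 80.7% and 87% of them, against 51.1% and 48.9% of all genes. The 32 rises and 29 falls are the same genes in each look-up, those called in all 3 media. The look-ups thus differ in how many genes were chosen and are not independent. The glucose-deprived and the 2-DG fit each contained 1 of the libraries that stood apart.

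Without both such libraries the same look-up gave a more even picture. The high-glucose libraries then called 438 of 694 rises (63.1%, against 10.7%) and 696 of 1088 falls (64%, against 11.6%). For 2-DG medium the calls were 438 of 761 rises (57.6%, against 11.3%) and 696 of 1005 falls (69.3%, against 13.6%). The glucose-deprived libraries called 438 of 881 rises (49.7%, against 17.8%) and 696 of 1104 falls (63%, against 20.2%), and called 70 and 58 of them the opposite way. Opposite calls in the other media numbered 1 and 7 in high glucose and 9 and 4 with 2-DG. The 438 rises and 696 falls are again the same genes in each look-up.

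**Figure D2:**
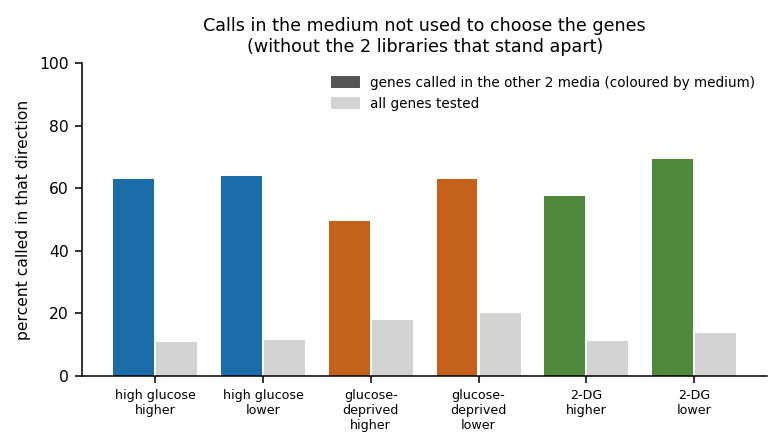
Percent of genes called in the other 2 media that were also called, in the same direction, in the medium named below each pair of bars (coloured), beside the percent of all genes tested called there (grey), without the libraries that stood apart. The coloured bars lie between 49.7% and 69.3%, the grey ones between 10.7% and 20.2%.

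The largest changes were listed among shared genes with a symbol, a mean log2 CPM of 1 or more and groups that did not overlap in any medium. The 12 largest falls of this kind were ANGPTL4, CSF2, SPRY4, INHBA, FOSL1, GPR3, HBEGF, CHAC1, SLC16A14, ETV4, HAS3 and KCTD15, with mean log2 changes from -1.72 to -0.90. Of these, 11 passed in each medium and CHAC1 in 2 media. The 12 largest rises were RCSD1, MAB21L4, LYPD1, NEFM, CD34, SYT8, CLIC3, RBBP8NL, IGFL2-AS1, MUC20, CLEC7A and LY6D, from 1.36 down to 0.91, and 10 of them passed in each medium. CD34 and CLIC3 did not pass in every medium, and CD34 was at 0 to 0.103 CPM in glucose-deprived control libraries and at 0.130 to 0.154 CPM with CGRP, which is a few reads. The counting is not stated to use strand, so reads of IGFL2-AS1 and of genes on the other strand cannot be told apart.

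**Figure D3:**
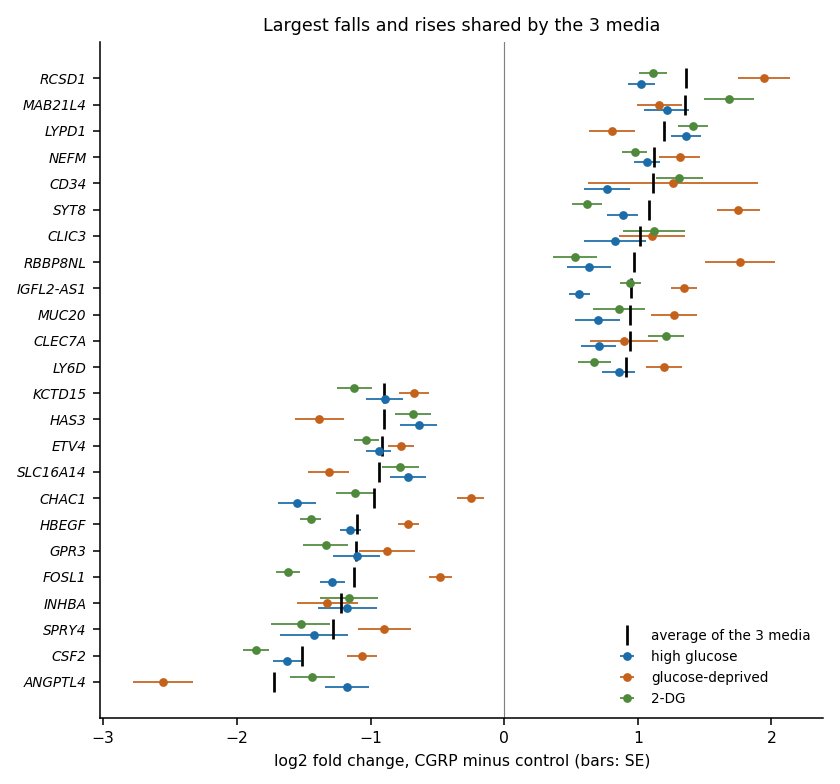
Log2 fold change of CGRP against control in each medium (points, with SE bars) and their average (black ticks) for the 12 largest falls and 12 largest rises. The genes were chosen for having 1 sign, and points run from -2.55 for ANGPTL4 in glucose-deprived medium to 1.94 for RCSD1 there.

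ANGPTL4, a secreted inhibitor of lipoprotein lipase, had the largest of these falls. In high glucose it stood at 45.7, 42 and 43.1 CPM in the control libraries and 20.8, 17 and 20.1 CPM with CGRP. The glucose-deprived libraries gave 13.7, 9 and 11.2 CPM in the control libraries and 2.58, 1.08 and 2.05 CPM with CGRP. With 2-DG the levels were 42.8, 52.9 and 39.5 CPM in the control libraries and 18.9, 15.3 and 15.9 CPM with CGRP. The gene was chosen from those without overlap, and the lowest levels of all were in the glucose-deprived CGRP libraries. The mean log2 change was -1.72 ± 0.11 (adjusted p = 1.84e-08), with -1.18, -2.55 and -1.44 in the 3 media and an adjusted p of 0.0242 for the difference between them.

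Promoters of these 24 genes were read as the 250 bases before the RefSeq transcription start (GRCh38.p14), which a table held for 9 of the falls and 5 of the rises. Both strands were searched for the cAMP response element CRE (TGACGTCA) and its first part (TGACG, contained in the CRE), the AP-1 site (TGANTCA), the CARE element of ATF4 (TGATGNAA), an NF-kB core (GGANTTTCC) and the antioxidant response element ARE (TGACNNNGC). Of 27305 such windows of all genes, 1.77% held the CRE, 21.7% its first part, 6.6% the AP-1 site, 3.19% the CARE, 1.47% the NF-kB core and 11.0% the ARE. The windows shown are the 5 that held any of these other than the first part of the CRE, chosen after the search, and they show where these motifs lie in genes that moved. Capitals mark these motifs, and the first part of the CRE on its own is left in lower case. SPRY4 lies at chr5:142324248-142324497 on the minus strand (ARE), GPR3 at chr1:27392372-27392621 on the plus strand (ARE, then CRE 36 to 29 bases before the start), CHAC1 at chr15:40953221-40953470 on the plus strand (CARE 209 to 202 bases before), MAB21L4 at chr2:240896157-240896406 on the minus strand (AP-1, 53 to 47 bases before) and LYPD1 at chr2:132671527-132671776 on the minus strand (ARE, then AP-1 sites 217 to 211 and 210 to 204 bases before). All are printed 5′ to 3′ on the gene's strand. The bases just after the start were found near the beginning of 1 GENCODE 29 transcript for each window except CHAC1. For CHAC1 they were found in 0, so its distances rest on the RefSeq start alone.
SPRY4: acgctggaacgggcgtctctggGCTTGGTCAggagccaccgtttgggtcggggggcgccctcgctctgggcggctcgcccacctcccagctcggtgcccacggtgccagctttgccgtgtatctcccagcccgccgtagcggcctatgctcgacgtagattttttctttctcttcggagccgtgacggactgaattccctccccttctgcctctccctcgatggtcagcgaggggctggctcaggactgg
GPR3: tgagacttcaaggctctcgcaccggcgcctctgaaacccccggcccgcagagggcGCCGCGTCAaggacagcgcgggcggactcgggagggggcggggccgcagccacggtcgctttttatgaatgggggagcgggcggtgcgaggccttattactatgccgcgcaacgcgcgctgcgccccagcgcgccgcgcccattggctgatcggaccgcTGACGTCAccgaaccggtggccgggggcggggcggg
CHAC1: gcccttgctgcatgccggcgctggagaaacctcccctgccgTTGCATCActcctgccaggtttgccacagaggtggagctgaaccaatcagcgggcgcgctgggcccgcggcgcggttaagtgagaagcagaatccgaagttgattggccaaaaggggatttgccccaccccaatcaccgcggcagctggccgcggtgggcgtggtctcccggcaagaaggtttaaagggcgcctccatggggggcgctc
MAB21L4: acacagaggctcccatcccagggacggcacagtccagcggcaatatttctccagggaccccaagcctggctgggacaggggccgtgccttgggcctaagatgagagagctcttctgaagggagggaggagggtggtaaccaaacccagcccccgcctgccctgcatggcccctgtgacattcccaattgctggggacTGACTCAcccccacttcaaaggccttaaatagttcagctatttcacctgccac
LYPD1: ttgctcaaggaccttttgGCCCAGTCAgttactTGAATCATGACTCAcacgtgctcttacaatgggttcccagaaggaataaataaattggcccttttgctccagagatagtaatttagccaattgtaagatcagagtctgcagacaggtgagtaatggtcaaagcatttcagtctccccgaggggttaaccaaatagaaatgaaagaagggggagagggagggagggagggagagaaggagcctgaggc
GPR3, a receptor that raises cyclic AMP without a ligand, carries the full CRE and fell (-1.11 ± 0.11, adjusted p = 1.9e-06). LYPD1 and MAB21L4 carry AP-1 sites and rose. A match of letters is a description of the window and shows no binding.

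Genes that ERK signalling induces were the list with the largest share of calls. Of 20 tested, 16 fell and none rose, all 16 with 1 sign in every medium, and in 12 the groups did not overlap in any medium. Over all genes tested 11.5% fell, and for 6.22% the groups did not overlap in any medium. The list's median log2 change was -0.54 beside -0.0044 over all genes. The falls took in the feedback inhibitors SPRY4 (-1.28), SPRY2 (-0.32), DUSP6 (-0.86), DUSP5 (-0.53) and SPRED2 (-0.23), which limit RAS or ERK activity. They also took in the transcription factors ETV4, ETV5 (-0.88 ± 0.038, adjusted p = 3.02e-10), EGR1 (-0.63) and MYC (-0.83 ± 0.030, adjusted p = 6.44e-11), and the cyclin gene CCND1 (-0.54). SPRY1, SPRED3, DUSP4 and ETV1 did not pass, with values from -0.14 to 0.01.

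ETV4, a transcription factor of the ETS family, showed nearly the same fall in each medium. Its levels in high glucose were 13.2, 13.7 and 13.4 CPM in the control libraries and 6.83, 6.92 and 7.22 CPM with CGRP. In glucose-deprived medium they were 15.1, 15.6 and 14.1 CPM in the control libraries and 8.27, 9.56 and 8.46 CPM with CGRP, and with 2-DG 15.6, 17.5 and 15 CPM in the control libraries and 6.57, 7.95 and 8.95 CPM with CGRP. All 9 CGRP libraries lay below all 9 control libraries, whatever the medium. Within each medium this was fixed by the choice of the gene. On average it changed by -0.91 ± 0.055 on the log2 scale (adjusted p = 1.14e-08), and the adjusted p of a difference between media was 0.538.

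For 8 of the 20 the size of the change did differ between media by the interaction test, against 3.44% of all genes. FOSL1, an AP-1 subunit, changed by -1.29, -0.48 and -1.62 in high-glucose, glucose-deprived and 2-DG medium. DUSP6, a phosphatase of ERK, changed by -1.02, -0.43 and -1.13, MYC by -0.90, -0.54 and -1.05 and EGR1 by -0.79, -0.11 and -0.98. In these 4 genes the glucose-deprived change was the smallest, and for EGR1 it did not pass there (adjusted p = 0.544).

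The ligands of the EGF receptor family fell alongside. Among 11 tested genes of ligands and receptors 6 fell and 2 rose (background 11.5% and 9.92%). Each fall had 1 sign and groups that did not overlap in any medium (background 6.22%). The list's median log2 change was -0.33. Those that fell were the ligands HBEGF, AREG (-0.67 ± 0.076), EREG (-0.54 ± 0.072), TGFA (-0.33 ± 0.044) and NRG1 (-0.45 ± 0.034), and ERRFI1 (-0.62 ± 0.052), an inhibitor of the receptor. The receptor genes ERBB2 (0.12) and ERBB3 (0.14) rose by little on average, ERBB2 with mixed signs, and EGFR did not pass (-0.24 ± 0.12).

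HBEGF encodes a membrane-anchored ligand that is released by cleavage. Its control libraries in high glucose stood at 66.5, 64.3 and 65.2 CPM and the CGRP libraries at 29.9, 28.1 and 30.4 CPM. In glucose-deprived medium the values were 62.2, 52.5 and 60.2 against 35.2, 33.8 and 37.4 CPM, and with 2-DG 93.2, 101 and 95.8 against 35.2, 31.6 and 39.6 CPM. All 9 CGRP libraries lay between 28.1 and 39.6 CPM, while the control libraries were highest with 2-DG. The mean log2 change of -1.10 ± 0.045 (adjusted p = 1.69e-10) was made of -1.15, -0.72 and -1.45, which differed between media (adjusted p = 0.00356).

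Of the 12 tested AP-1 family genes 6 fell and none rose (11.5% and 9.92% of all genes), with a median of -0.30. All 6 falls had 1 sign, 5 of them without overlap in any medium (6.22% of all genes). They were FOSL1, JUN (-0.48 ± 0.028), ATF3 (-0.41 ± 0.031) and the small MAF proteins MAFF (-0.49 ± 0.032), MAFK (-0.32 ± 0.027) and MAFG (-0.29 ± 0.050). FOS, FOSB, JUNB, JUND, FOSL2 and BATF3 did not pass, with values from -0.31 to 0.07. FOSL1 also counts among the ERK-induced genes.

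**Figure D4:**
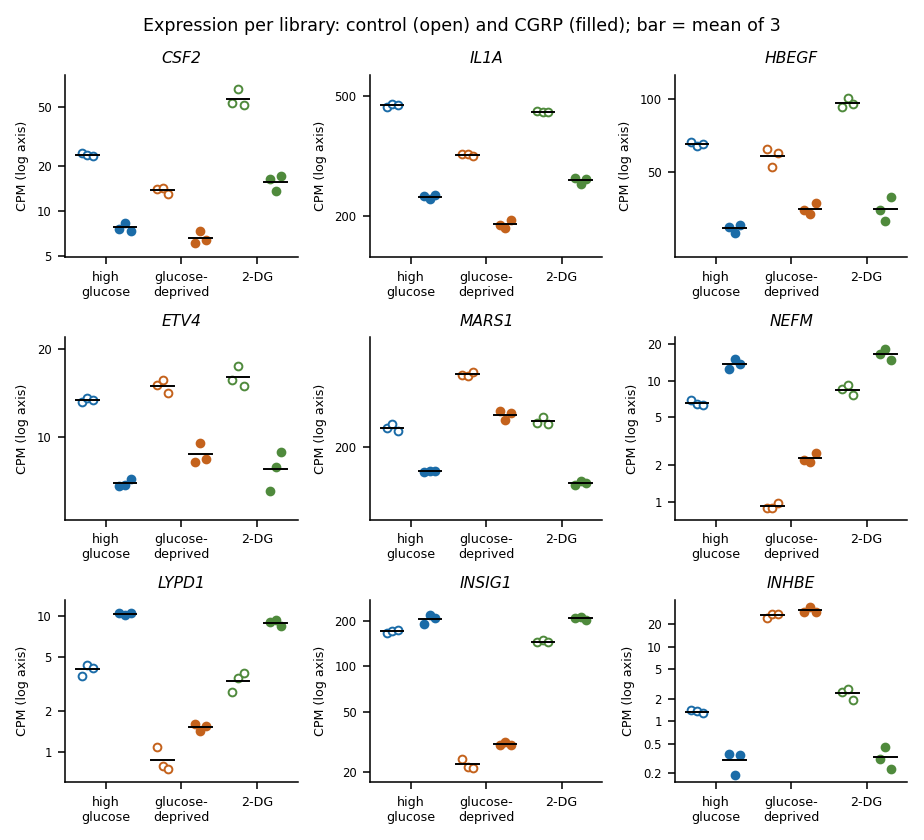
CPM per library on log axes for 9 genes, by medium, with control libraries open, CGRP libraries filled and bars at the mean of 3. In 8 of them control and CGRP points do not overlap in any medium and lie in 1 order, while INHBE was lower with CGRP in high-glucose and 2-DG medium and not in glucose-deprived medium.

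Cytokine genes and other NF-kB targets fell in part. Of 28 tested 13 fell and 1 rose (11.5% and 9.92% of all genes), with a median of -0.19. Of the falls 10 had 1 sign and 8 had no overlap in any medium (6.22% of all genes). In glucose-deprived medium 15 fell and 1 rose (median -0.36). In high glucose 7 fell and 0 rose (median -0.20), and with 2-DG 6 fell and 1 rose (median -0.11). Of all genes 13%, 4.33% and 12.2% passed in these media in either direction. For 7 the effect differed between media (3.44% of all genes). The falls with 1 sign were led by CSF2, IL1A, LIF (-0.85 ± 0.040), CX3CL1 (-0.83 ± 0.028) and IL1B (-0.60 ± 0.032). IL6 (-0.43, -1.35 and 0.16) and PTGS2 (-0.13, -0.73 and 0.01) passed on average with mixed signs and their changes were largest in glucose-deprived medium. CXCL1, CXCL2, CXCL3, CCL20 and NFKBIA, the inhibitor that NF-kB itself induces, did not pass, with values from -0.15 to -0.07. TNFAIP2 was the member that rose (0.23).

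CSF2, the gene of the granulocyte-macrophage growth factor GM-CSF, stood in high glucose at 24.3, 23.8 and 23.5 CPM in the control libraries and 7.59, 8.26 and 7.32 CPM with CGRP. Glucose-deprived libraries held 14, 14.3 and 13.1 CPM in the control libraries and 6.11, 7.36 and 6.34 CPM with CGRP. The 2-DG libraries held 53.5, 65.9 and 51.2 CPM in the control libraries and 16.3, 13.6 and 17.2 CPM with CGRP. Control levels were thus highest with 2-DG, and the groups were apart by choice of the gene. The mean log2 change was -1.52 ± 0.061 (adjusted p = 1.68e-10), and the medium changed its size (adjusted p of the difference = 0.0143).

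IL1A, an alarm cytokine of epithelia, had the smallest adjusted p of this list. High-glucose libraries stood at 459.8, 473 and 469.6 CPM in the control libraries and 232, 227 and 235 CPM with CGRP. Glucose-deprived libraries gave 321, 320.1 and 315 CPM in the control libraries and 186, 182 and 193 CPM with CGRP, and 2-DG libraries 448, 444 and 443 CPM in the control libraries and 266, 254 and 266 CPM with CGRP. The spread within a group was small beside the gap between groups in each medium, which a choice by adjusted p favours. Averaged over media the log2 change was -0.85 ± 0.024 (adjusted p = 4.14e-12), with -1.01, -0.77 and -0.76 in the 3 media.

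Among 20 tested genes of the activin, TGF-beta and BMP pathways 7 fell and 3 rose (11.5% and 9.92% of all genes), and 3 in each direction had 1 sign, with a median of -0.05. INHBA, the subunit of activin A, fell by much the same in every medium (-1.17, -1.33 and -1.16, adjusted p of the difference = 0.935). It stood in high glucose at 102, 108 and 101 CPM in the control libraries and 51.4, 43.6 and 42.9 CPM with CGRP. Glucose-deprived libraries had 59, 36.6 and 45 CPM in the control libraries and 23.5, 10.1 and 22.3 CPM with CGRP, and 2-DG libraries 150.0, 112 and 136 CPM in the control libraries and 55.6, 62.2 and 60.4 CPM with CGRP. The control levels differed between media more than 2-fold, and the lowest value was that of the glucose-deprived CGRP library that stood apart. INHBA changed by -1.22 ± 0.13 (adjusted p = 4.77e-06), and SMAD7 (-0.30) and SMAD3 (-0.23) were the other falls with 1 sign. ID1 (0.59 ± 0.058) and ID3 (0.27 ± 0.063), target genes of BMP signalling, rose in every medium without overlap.

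ATF4 drives the response to amino acid shortage and stress, and its target genes fell on average but were shared less evenly. Of 29 tested 21 fell and none rose (11.5% and 9.92% of all genes), with a median of -0.35. Of the falls 14 had 1 sign and 8 had no overlap in any medium (6.22% of all genes). For 14 of the 29 the effect differed between media (3.44% of all genes). In high glucose 16 fell, with 2-DG 20 and in glucose-deprived medium 6. Of all genes 4.33%, 12.2% and 13% passed there in either direction. Shared falls without a called difference included PPP1R15A (-0.38, -0.29 and -0.37), a phosphatase subunit, SESN2 (-0.23, -0.29 and -0.18) and the amino acid transporter gene SLC7A5 (-0.35, -0.23 and -0.60). PSAT1 and GPT2, enzymes of serine and alanine synthesis, and the secreted STC2 fell in each medium by unequal amounts.

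The amount for PSAT1 can be read from its libraries. In high glucose it stood at 334, 341 and 338 CPM in the control libraries and 189.9, 195 and 193 CPM with CGRP. With 2-DG it stood at 409.5, 439.6 and 411 CPM in the control libraries and 195, 189.7 and 190.1 CPM with CGRP. In glucose-deprived medium the gap was narrower, at 532, 519 and 514 CPM in the control libraries and 448, 496 and 444 CPM with CGRP. All groups were apart, and the log2 changes were -0.81, -0.18 and -1.13 (adjusted p of the difference = 5.5e-06).

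INHBE, an activin subunit gene induced by ATF4, was called on average (-1.58 ± 0.12, adjusted p = 9.92e-08) and was not shared. Its levels were 1.4, 1.37 and 1.28 CPM in the control libraries and 0.367, 0.188 and 0.35 CPM with CGRP in high glucose. They were 2.49, 2.67 and 1.91 CPM in the control libraries and 0.313, 0.451 and 0.23 CPM with CGRP with 2-DG. In glucose-deprived medium, where the gene was far higher, they were 24.2, 27.2 and 28.1 CPM in the control libraries and 29.6, 34 and 29.3 CPM with CGRP. There the change was 0.22 and did not pass (adjusted p = 0.17), against -2.14 and -2.81 in the other media. GDF15, a stress-induced cytokine, had the same pattern of signs, with -1.01, 0.15 and -1.09. In a model with 1 CGRP effect for all media, INHBE no longer passed (adjusted p = 0.155).

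Of the 20 aminoacyl-tRNA synthetase genes, which charge tRNAs with amino acids, 15 fell and none rose (11.5% and 9.92% of all genes). Of the falls 10 had 1 sign and 7 had no overlap in any medium (6.22% of all genes). The list's median was -0.21. MARS1, for methionine, was the most even of those named. Its levels in high glucose were 226, 232 and 222 CPM in the control libraries and 170.0, 171 and 171 CPM with CGRP. In glucose-deprived medium they were 319, 316 and 325 CPM in the control libraries and 252, 238 and 249.6 CPM with CGRP, and with 2-DG 234, 242 and 232 CPM in the control libraries and 156, 160.2 and 158 CPM with CGRP. Control levels were highest without glucose, and CGRP libraries were lower in each medium, by -0.41, -0.38 and -0.58 on the log2 scale. On average MARS1 changed by -0.45 ± 0.024 (adjusted p = 2.39e-09), AARS1 by -0.49 ± 0.034, GARS1 by -0.42 ± 0.031 and WARS1 by -0.32 ± 0.024. GARS1 (-0.04) and WARS1 (0.02) did not pass in glucose-deprived medium. Without both libraries that stood apart GARS1 passed there (-0.09, adjusted p = 0.0145) and WARS1 did not (0.04, adjusted p = 0.263).

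Chaperone genes of the endoplasmic reticulum show how an average can come mostly from 1 medium. Of 21 tested 10 fell on average and none rose (11.5% and 9.92% of all genes). With 2-DG 18 fell, where 12.2% of all genes passed in either direction. None fell in high glucose or in glucose-deprived medium, where PDIA4 rose (0.21). The effect differed between media for 13 (3.44% of all genes), and none of the 10 had groups apart in every medium. HSPA5, the main chaperone of that compartment, changed by 0.12, -0.07 and -0.70, and HYOU1 by -0.12, -0.09 and -0.75. With the 2-DG libraries left out, XBP1, HYOU1, DNAJB9 and DNAJB11 no longer passed. Without both libraries that stood apart 18 fell on average, where 39% of all genes passed. XBP1 then also passed in high-glucose (-0.18) and glucose-deprived medium (-0.16), beside -0.55 with 2-DG. HYOU1 also passed in high glucose (-0.12), and DNAJB9 (-0.12) and DNAJB11 (-0.12) in glucose-deprived medium, beside -0.79, -0.52 and -0.51 with 2-DG. HYOU1 did not pass in glucose-deprived medium (0.02), nor DNAJB9 (-0.04) and DNAJB11 (0.00) in high glucose.

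Genes of cholesterol synthesis were the list that rose most evenly. Of 24 tested 16 rose and none fell, against 9.92% of all genes that rose. Of the rises 15 had 1 sign and 9 had no overlap in any medium (6.22% of all genes). The median was 0.18. A difference between media was called for 1 (3.44% of all genes), HMGCS1 (0.23, -0.05 and 0.36). Members along the pathway rose, from the mevalonate enzymes MVK (0.39 ± 0.037) and MVD (0.26) through IDI1 (0.36) to LSS (0.39 ± 0.039), which closes the sterol rings, and MSMO1 (0.26 ± 0.027). SREBF2, the master regulator, did not pass (0.08 ± 0.055).

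INSIG1, which holds the sterol regulators in the endoplasmic reticulum and is itself induced by them, gave the smallest adjusted p. It stood in high glucose at 167, 172 and 174 CPM in the control libraries and 191, 219.5 and 208 CPM with CGRP. With 2-DG it was at 145, 149 and 144 CPM in the control libraries and 209.7, 213 and 202 CPM with CGRP. Glucose-deprived libraries were lower, at 24.5, 21.8 and 21.4 CPM in the control libraries and 30.0, 31.5 and 30.3 CPM with CGRP. The rise was thus present at a high and at a low starting level, with 0.27, 0.44 and 0.51 and a mean of 0.41 ± 0.034 (adjusted p = 3.57e-07).

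Hypoxia-responsive and glycolytic genes rose in part on average, and less so in glucose-deprived medium. Of 20 tested hypoxia-responsive genes 7 rose and 3 fell (median 0.12; 9.92% and 11.5% of all genes), of which 5 and 3 had 1 sign. For 9 the effect differed between media (3.44% of all genes). In glucose-deprived medium 4 rose and 5 fell (median -0.18). In high glucose 9 rose and 2 fell (median 0.31), and with 2-DG 11 rose and 3 fell (median 0.28). Of all genes 13%, 4.33% and 12.2% passed in these media in either direction. CA9 (0.53 ± 0.060), a carbonic anhydrase, BNIP3L (0.38 ± 0.028), a mitophagy receptor, and PLOD2 (0.45 ± 0.036), a collagen-modifying enzyme, rose in each medium, while ANGPTL4 and VEGFA (-0.43 ± 0.055) fell. Of 25 glycolysis genes 10 rose and 2 fell (median 0.10), 7 and 2 with 1 sign, and for 6 the effect differed between media. In glucose-deprived medium 3 rose and 6 fell (median -0.02). In high glucose 7 rose and 2 fell (median 0.18), and with 2-DG 9 rose and 2 fell (median 0.12). PFKFB4 (0.60 ± 0.052), which makes an activator of phosphofructokinase, ALDOC (0.40 ± 0.043) and PGAM1 (0.35 ± 0.047) rose in each medium and PFKM (-0.22 ± 0.024) fell. SLC2A1, HK2 and GAPDH did not pass (0.02, -0.15 and 0.14).

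Of 15 tested neuronal genes 7 rose and 2 fell (9.92% and 11.5% of all genes), with a median of 0.23. Of these 6 and 2 had 1 sign, and 5 of the rises had no overlap in any medium (6.22% of all genes). NEFM and NEFL (0.57 ± 0.10) encode neurofilament subunits, SYT8 (1.09 ± 0.076) a synaptotagmin, LYPD1 a modulator of nicotinic receptors and NGFR (0.42 ± 0.042) a neurotrophin receptor that basal keratinocytes also express. BDNF, which encodes a neurotrophin, did not pass (0.17).

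NEFM was low in all libraries and lowest without glucose. Control libraries stood at 6.98, 6.45 and 6.29 CPM in high glucose, 0.889, 0.896 and 0.986 CPM without glucose and 8.58, 9.17 and 7.58 CPM with 2-DG. The CGRP libraries stood at 12.6, 15.1 and 13.7, at 2.23, 2.12 and 2.54 and at 16.7, 18.3 and 14.9 CPM in the same order of media. Groups were apart, as the choice of the gene fixed. The mean log2 change was 1.12 ± 0.068 (adjusted p = 1.2e-08), with 1.07, 1.31 and 0.98 in the media.

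LYPD1 had 3.64, 4.41 and 4.17 CPM in the control libraries and 10.6, 10.3 and 10.6 CPM with CGRP in high glucose. Without glucose it had 1.09, 0.793 and 0.748 CPM in the control libraries and 1.62, 1.43 and 1.56 CPM with CGRP, and with 2-DG 2.77, 3.52 and 3.82 CPM in the control libraries and 9.07, 9.37 and 8.46 CPM with CGRP. The gap between groups, present by choice of the gene, was smallest without glucose. Its mean log2 change was 1.19 ± 0.078 (adjusted p = 2.93e-08; difference between media, adjusted p = 0.244).

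RCSD1, a regulator of actin capping protein, was the largest rise among the genes of that kind. It stood at 7.64, 6.32 and 6.73 CPM in the control libraries and 13.3, 14.3 and 14.6 CPM with CGRP in high glucose. Without glucose it was near the lower limit of the test, at 0.329, 0.551 and 0.442 CPM in the control libraries and 2.01, 1.39 and 1.69 CPM with CGRP, and with 2-DG it was at 5.87, 4.89 and 5.27 CPM in the control libraries and 11.6, 11.9 and 11.2 CPM with CGRP. Groups were apart, as the choice of the gene required, and the largest fold was in the medium with the fewest reads. RCSD1 changed by 1.36 ± 0.081 on average (adjusted p = 1.09e-08).

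Several rises are markers of other cell types, so the marker lists were read in full. Of 8 neuron markers 4 were tested and 3 rose, NEFM, NEFL and TRPV1 (0.23 ± 0.050, with mixed signs), with summed levels of 9.24 to 16.5 CPM in control and 13.8 to 26.7 CPM in CGRP libraries, while SNAP25, SYN1 and RBFOX3, which define neurons, never passed 0.0918 CPM. Of 5 endothelial markers CDH5 rose and carried the sum, which was 1.86 to 25.2 CPM in control and 3.12 to 44.0 CPM in CGRP libraries. KDR, PECAM1 and TEK stayed at or under 0.0643, 0.257 and 0.347 CPM. Of 6 fibroblast markers 4 were tested and 3 rose, COL1A1 (0.22 ± 0.047), PDGFRB (0.31 ± 0.091) and COL1A2 (0.61 ± 0.18), with sums of 10.7 to 27.0 and 11.0 to 28.6 CPM and DCN and FAP at or under 0.353 and 0.0986 CPM. Of 6 leukocyte markers CD14 rose (1.34 ± 0.22), with sums of 0.0345 to 2.40 and 0.195 to 4.71 CPM and PTPRC at or under 0.822 CPM. The Schwann and glia markers summed to 0.824 to 2.16 and 1.14 to 2.53 CPM.

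CDH5, the cadherin of endothelial junctions, is an example of such a rise in squamous cells. It stood at 23.1, 23.1 and 22.4 CPM in the control libraries and 41.7, 40.5 and 41.6 CPM with CGRP in high glucose. It was at 2.47, 1.66 and 2.07 CPM in the control libraries and 3.36, 2.89 and 3.74 CPM with CGRP without glucose and at 23.7, 20.1 and 23.2 CPM in the control libraries and 38, 41 and 40.0 CPM with CGRP with 2-DG. Levels with CGRP were higher in each medium, by 0.85, 0.69 and 0.83 on the log2 scale, with a mean of 0.79 ± 0.059 (adjusted p = 1.06e-07) and no called difference between media (adjusted p = 0.812).

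Genes of the cAMP pathway showed few calls. Of 28 tested genes of Gs, adenylyl cyclases, phosphodiesterases, protein kinase A and CREB 2 rose and 5 fell (median -0.04), shares of the order of the 9.92% and 11.5% of all genes. ADCY3 (-0.28 ± 0.035), an adenylyl cyclase, fell and ARRB1 (0.28 ± 0.044), a beta-arrestin, rose, both with 1 sign. PDE10A, a phosphodiesterase, fell on average (-1.19 ± 0.26) and passed in no single medium, and AKAP12, a scaffold of protein kinase A, fell in glucose-deprived medium (-1.22) and did not pass in the others. Of 21 genes that CREB can induce 2 rose and 5 fell (median -0.11). CITED2 rose in each medium (0.46, 0.43 and 0.33), while NR4A1 (-0.47), AREG, EGR1, ATF3 and KLF4 (-0.33) fell. CREM, PDE4D, SIK1, PER1 and NR4A2 did not pass, with values from -0.27 to 0.03. Rap1 regulators gave 3 rises and 2 falls among 21, RASGRP2 the largest (0.72 ± 0.099), an activator of Rap1.

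**Figure D5:**
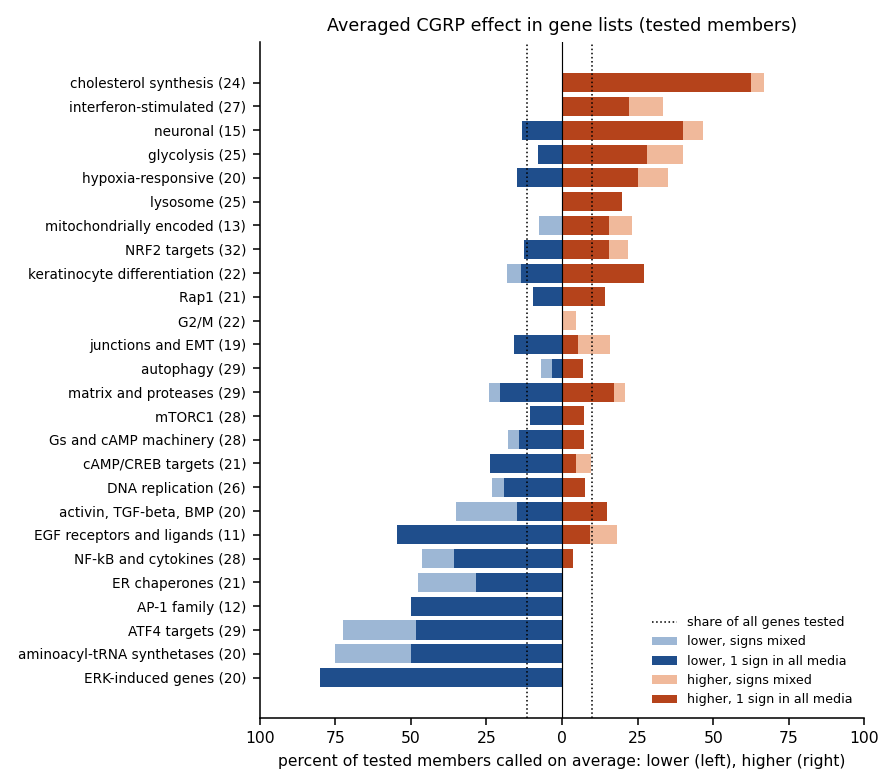
Percent of tested members of 26 gene lists (number tested in brackets) called lower or higher with CGRP on average, dark where the change had 1 sign in all media and light where signs were mixed; dotted lines mark the 11.5% and 9.92% of all genes tested. ERK-induced genes, EGF receptor ligands and the AP-1 family are dark on the left and cholesterol synthesis on the right, while interferon, ATF4 and chaperone lists hold light stretches.

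Not every gene that passed on average was shared. Signs were mixed for 436, whose sign went against the average in glucose-deprived medium for 195, in high glucose for 147 and in 2-DG medium for 105 (some genes in more than 1 medium), and 186 of these had a called difference between media. A difference between media was called for 624 genes (3.44%; 392 to 1169 when 1 library at a time was left out, the highest without the second glucose-deprived CGRP library), of which 364 also passed on average, 178 of them with 1 sign. The other 3269 shared genes had no called difference, which does not show that their effects were equal. Interferon-stimulated genes were of the mixed kind. On average 9 of 27 rose (9.92% of all genes), 6 with 1 sign. In glucose-deprived medium 7 fell, where 13% of all genes passed in either direction. Without both libraries that stood apart 13 rose and 2 fell on average, where 39% of all genes passed. OAS1 (0.33, 0.33 and 0.42) was the one with groups apart in every medium. Of 22 genes of the G2 and M phases 1 rose on average, and 8 rose and 1 fell without both libraries that stood apart. With 2-DG 11 rose and without glucose 7 fell, where 12.2% and 13% of all genes passed in either direction.

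At the threshold, TRAPPC12 lay just inside (-0.10 ± 0.035) and FANCF just outside (-0.12 ± 0.043), both at an adjusted p of 0.05 after rounding. Neither was shared: TRAPPC12 changed by 0.00, -0.17 and -0.14 in the 3 media and FANCF by 0.04, -0.04 and -0.37, each with a positive sign in high glucose.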

How the data were processed

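RNA-seq of Cal27 cells gave 18 libraries. The deposited table, per the file headers, lists raw counts of 60683 Ensembl IDs, 60370 of them found in a gene name table. HISAT2 2.0.4 aligned the reads, per the submitters' processing notes. These name both hg19 and GRCh38, so no coordinates are given for counted genes. How reads were counted, with which annotation and whether by strand, is not stated.

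The filter filterByExpr (at least 10 counts, at least 15 in total) kept 18159 genes. After TMM scaling, the robust quasi-likelihood F test of edgeR 4.0.16 (R 4.3.3) was fitted with a coefficient for each of the 6 groups, which left 12 residual degrees of freedom. Adjusted p-values are Benjamini-Hochberg over the genes tested, at a threshold of 0.05, and ± is the standard error. The common biological coefficient of variation was 9.44%, and 2.82% without both libraries that stood apart. CPM values use TMM-scaled totals, and principal components their log2 with a pseudocount of 2. Gene types and lengths came from GENCODE 29. Libraries held at least 28.04M counts. Replicate pairs without the libraries that stood apart differed by a chi-square per degree of freedom of 1.43 to 5.60, where 1 is counting error alone, so counting error is a sizeable part of their spread.

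The genes named are the 12 largest rises and falls with a symbol, a mean log2 CPM of 1 or more, 1 sign and no overlap in any medium, and up to 4 members with the smallest adjusted p of each list with 3 or more calls. Other list members are named to describe their list and were chosen after their values were seen. Some members of these lists are not reported here by name. The rule, the genes and the lists were chosen with earlier results of these data known, so list counts are not independent evidence. Alternatives were other scalings (RLE, total counts), filters, DESeq2 1.42.0, replicate blocks, an additive model, fits per medium, and leaving out libraries or media.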

Additional observations from a re-analysis of the deposited data

Results flagged for a closer look

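The size of the CGRP effect differed between the media for 624 genes by edgeR's quasi-likelihood test of the interaction, and 43 of the genes followed through the settings were among them. Values in brackets are the adjusted p of that difference.

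In several genes of amino acid supply and stress the change in glucose-deprived medium was the smallest or had the opposite sign. These were PSAT1 (5.5e-06), GPT2 (0.000277), STC2 (0.00465), CHAC1 (0.000978), INHBE (5.5e-06), GDF15 (4.63e-06), ADM2 (1.87e-05), SQSTM1 (0.000937) and the synthetase genes AARS1 (0.0131), GARS1 (0.000271) and WARS1 (5.5e-06). The same order held for FOSL1 (0.000262), JUN (0.0121), EGR1 (0.0105), KLF4 (0.0264), MYC (0.00215), HBEGF (0.00356), CSF2 (0.0143), SPRR1A (0.0433), CD44 (0.0191), PLOD2 (0.047) and IFIT1 (0.0466).

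In others the glucose-deprived change was the largest. ANGPTL4 (0.0242), CX3CL1 (5.5e-06), ERRFI1 (0.00638), AKAP12 (0.035) and KRT6A (0.011) fell most there. SYT8 (0.0101), IGFL2-AS1 (0.00545), TIMP2 (0.0164), CASTOR2 (0.036), ALDH3A1 (0.000957), GPX2 (0.000701) and AKR1C3 (0.0159) rose most there; how reads were divided among AKR1C3 and its close paralogs is not stated.

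The chaperone genes XBP1 (0.00737), HYOU1 (0.00222), DNAJB9 (0.00756) and DNAJB11 (0.00144) and the laminin gene LAMB3 (1.41e-05) fell most with 2-DG. IL1A (0.031), IFIT3 (0.0388) and MT-ND1 (0.0479) changed most in high glucose, and CDC6 (0.0317) least there.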

How the results depend on the processing

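Of 123 genes followed through the settings 116 passed on average, and 92 kept direction and call in every setting that tested them. There were 30 settings that give an averaged effect, and PDE10A, among the 92, was tested in 29 of them. No gene called on average changed sign. CALCB, which was not called and has few reads, ranged from -1.32 to 0.34 on the log2 scale. Calls were lost most often for TRAPPC12 at the threshold and for ESRP2 and WIPI2 (in 19 and 16 settings).

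Without both libraries that stood apart, 7209 genes passed on average (3162 higher, 4047 lower), 5692 with 1 sign, 2224 without overlap in any medium and 1187 in each medium. Single media then gave 3520 (high glucose), 5307 (glucose-deprived) and 5249 (2-DG) genes, and the difference between media 3897. Leaving out 1 library at a time gave 3301 to 5334 genes on average, 2965 to 4595 with 1 sign, 1154 to 1671 without overlap, 181 to 549 in each medium, 353 to 1565 in high glucose, 1282 to 2726 in glucose-deprived and 1447 to 3853 in 2-DG medium, and 392 to 1169 for the difference.

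Without a filter on low counts 191 genes passed in each medium, 474 in high glucose, 1463 in glucose-deprived medium and 376 for the difference. Fits of only the 6 libraries of a medium called 3653, 141 and 1194 genes in high-glucose, glucose-deprived and 2-DG medium. Leaving out a medium leaves fewer groups to separate: 1951 genes had no overlap without the glucose-deprived and 1690 without the 2-DG libraries. DESeq2 called 1078 genes for the difference. For all other such counts the cause was not tested.

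Replicate numbers did not pair the libraries: correlations of same-numbered deviations were 0.027, 0.034 and 0.013 in high glucose, -0.020, -0.046 and -0.024 without glucose and -0.154, -0.130 and 0.054 with 2-DG. With a replicate block within medium 144 genes passed in each medium, 328, 1207 and 1359 within the media and 144 for the difference.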

Other observations

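Enzymes that remodel the matrix were called in both directions, and 9.92% of all genes tested rose and 11.5% fell. Of 29 tested genes of matrix, adhesion and proteolysis 6 rose and 7 fell on average, 5 and 6 with 1 sign (median -0.04). HAS3, a hyaluronan synthase, changed by -0.90 ± 0.089 and ITGA3 by -0.25 ± 0.048. The collagenase gene MMP1 (0.47 ± 0.078), the stromelysin gene MMP10 (0.56 ± 0.095) and PLAT (0.52 ± 0.090), a plasminogen activator, were higher, each with 1 sign. Of 22 tested keratinocyte differentiation genes 6 rose and 4 fell (median 0.02), among them the kallikreins KLK5 (0.53 ± 0.060) and KLK7 (0.70 ± 0.12) and MAB21L4 (1.35 ± 0.10) upward and the cornified envelope genes SPRR1A (-1.03 ± 0.12) and SPRR1B (-0.66 ± 0.11) downward, close paralogs whose share of reads is uncertain. Of 19 genes of junctions and EMT 3 rose and 3 fell, CDH2 (-0.26 ± 0.032), which encodes N-cadherin, among the falls.

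The remaining lists can be read against the same shares of all genes. Lysosomal genes gave 5 rises and 0 falls among 25, all 5 with 1 sign, among them NEU1 (0.28 ± 0.041) and CTSB (0.26 ± 0.038), whose products are a sialidase and a protease. NRF2 targets gave 7 rises and 4 falls among 32, and differed between media for 10 (3.44% of all genes). ALDH3A1, GPX2 and AKR1C3 were among the rises and ABCC3 (-0.58 ± 0.061, -0.57, -0.53 and -0.65 in the 3 media) among the falls. Mitochondrially encoded genes gave 3 rises and 1 fall among 13, DNA replication 2 and 6 among 26, autophagy 2 and 2 among 29, and mTORC1 regulators 2 and 3 among 28. Without both libraries that stood apart these were 6 and 3, 4 and 12, 4 and 4, and 8 and 9, where 39% of all genes passed.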
